A study of Mus musculus with 23 samples.

Results

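Olfr30 and Olfr376 are odorant receptor genes of the mouse, and they are 2 of the 23481 genes and 2 of the 1122 receptor genes in the count tables. They were chosen by the log2 fold changes and adjusted p-values of 2 contrasts, since an earlier analysis of these same libraries called both of them higher with 100% acetophenone and with 100% TMT when litters were compared within themselves. The values of those contrasts therefore chose the genes and are given below as a description, without a test.

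The study sequenced RNA recovered by immunoprecipitation of phosphorylated S6 (pS6), a ribosomal protein, from the olfactory epithelium of C57BL/6 mice at postnatal day 21. In the acetophenone experiment, mice received a control exposure (5 libraries, litters 1 to 5), 1% acetophenone (3 libraries, litters 3 to 5) or 100% acetophenone (3 libraries, litters 1 to 3), each for 1 h. In the TMT experiment, mice of 4 litters received control, 1% TMT or 100% TMT for 1 h, with 4 libraries in each group. No transgene or mutation is named in the labels, and the number of mice behind a library is not given in the sources used here.

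An olfactory sensory neuron of the mouse transcribes a single receptor gene out of a very large family, from a single allele. S6, a protein of the small ribosomal subunit, becomes phosphorylated in a neuron that has been active, so that its antibody pulls down ribosomes and messenger RNA preferentially from active neurons. Acetophenone is an aromatic ketone with a sweet floral smell, and TMT (trimethylthiazoline) is a component of fox secretions that rodents avoid. In whole tissue, a change in the number of neurons that carry a receptor and a change in the receptor RNA recovered per neuron cannot be told apart.

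Both genes lie on chromosome 11, in separate receptor clusters (GRCm38, the build named mm10, with the GENCODE M21 annotation). Olfr30 (ENSMUSG00000043314.6) spans 58454105 to 58462270 on the minus strand, with its 948 coding bases in 1 exon at 58455000 to 58455947. Olfr376 (ENSMUSG00000063881.11) spans 73371246 to 73377836 on the plus strand, with 963 coding bases in its longest annotated form. Their coding sequences were 61.1% identical, while the median identity to the 1103 other receptors with a coding sequence and a row in the tables was 59.0% for Olfr30 and 60.3% for Olfr376. By coding sequence they are thus hardly closer to each other than to receptors at large.

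The genes differ in how many near copies they have, which decides which reads can be counted for them. The closest receptor to Olfr376 was Olfr20, which starts 20.5 kb away and shares 92.5% of the aligned coding bases. The longest stretch that both carry unchanged is 117 bases long and is shown because a read that falls inside it cannot be placed. It lies at chr11:73375219-73375335 in Olfr376 and at chr11:73354214-73354330 in Olfr20, both on the plus strand.
Olfr376 and Olfr20: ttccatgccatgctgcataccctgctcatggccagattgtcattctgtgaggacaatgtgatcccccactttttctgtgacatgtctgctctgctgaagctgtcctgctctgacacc

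A divergent stretch of 60 bases that pairs without gaps lies near the end of the coding sequence. It is at chr11:73375633-73375692 in Olfr376 and at chr11:73354628-73354687 in Olfr20. It is shown because reads there tell the genes apart, and capitals mark the 13 bases that differ.
Olfr376: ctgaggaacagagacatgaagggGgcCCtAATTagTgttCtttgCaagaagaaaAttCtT
Olfr20: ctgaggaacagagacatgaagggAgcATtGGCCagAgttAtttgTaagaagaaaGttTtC

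Olfr30 has no such copy. Its closest receptor was Olfr1395 at 67.7% identity, and the longest stretch that the pair carries unchanged is 18 bases. A stretch of 60 bases that pairs without gaps is shown for comparison. It lies at chr11:58455415-58455474 on the minus strand in Olfr30 and chr11:49148732-49148791 on the plus strand in Olfr1395. Capitals mark the 17 bases that differ.
Olfr30: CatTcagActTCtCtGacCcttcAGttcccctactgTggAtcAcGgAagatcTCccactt
Olfr1395: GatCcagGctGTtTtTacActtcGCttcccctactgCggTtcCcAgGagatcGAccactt

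Windows of 50 bases make the same point. None of the 899 windows of the Olfr30 coding sequence occurred in the annotated transcript taken for any other receptor, whereas 255 of the 914 windows of Olfr376 (27.9%) did, 175 of them in Olfr20. The deposited counts also set the genes apart. For Olfr376 the part of reads with several alignments was larger than the part of windows shared, and the reason was not tested. In all 23 libraries the count of Olfr30 was the same with and without reads that align to several places. For Olfr376, uniquely aligned reads summed to 1378 over the 23 libraries, which was 31.0% of the estimated count of 4451 that also takes in reads with up to 20 alignments. In the 11 libraries with at least 50 unique reads of Olfr376 that share ran from 25.9% to 35.3%. The unique counts used below therefore hold roughly the same small part of the reads assigned to Olfr376 in each of these libraries, and the levels of Olfr376 are understated against those of Olfr30.

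**Figure D1:**
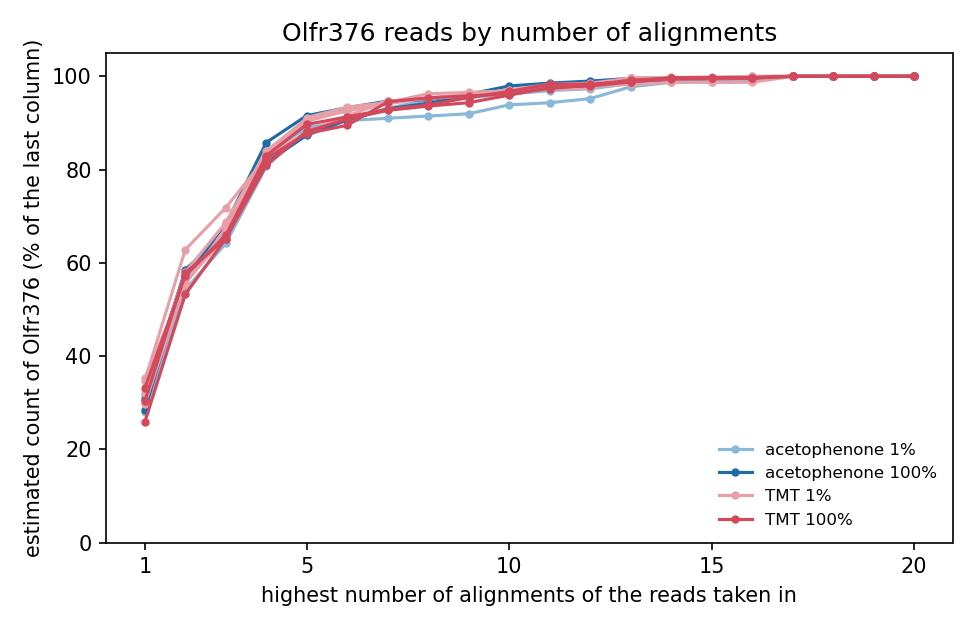
Estimated count of Olfr376 when reads with more and more alignments are taken in (x axis, highest number of alignments), as a percentage of the count with up to 20 alignments (y axis). Each line is 1 of the 11 libraries with at least 50 unique reads, coloured by odor and dose, and all begin between 25.9% and 35.3%.

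Depth limits receptors in these libraries. Uniquely counted reads came to 2389806 to 4151769 per library in the acetophenone controls, 2118099 to 3998370 with 1% acetophenone and 2187268 to 2946194 with 100% acetophenone. In the TMT experiment they ranged over 4069851 to 7609265 for controls, 2869995 to 9526932 for 1% TMT and 2672161 to 8347796 for 100% TMT. Receptor genes took 0.134% to 0.825% of the counts in the acetophenone experiment and 0.0232% to 0.270% in the TMT experiment. All 6 markers of mature olfactory neurons (Omp, Gnal, Adcy3, Cnga2, Stoml3 and Cngb1) had a row, and 5 of them had a count in every library.

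With 100% acetophenone, Olfr30 and Olfr376 were both several-fold higher than in their own litter's control, in 3 of 3 litters. Olfr30 had counts of 152, 350 and 141 with 100% acetophenone in litters 1, 2 and 3, against 34, 52 and 22 in the controls of these litters. In counts per 1000000 counts of the library (CPM, scaled by the trimmed mean of M-values, TMM) this was 48.1, 117 and 57.3 CPM with 100% acetophenone, against 10.8, 18 and 8.21 CPM in controls. The groups did not overlap, and litter 2 was the highest in both. Of all genes tested, 1.75% lay higher without overlap in this contrast, a share given without a reading because the contrast chose the genes. The log2 fold change of Olfr30 was 2.57 (SE 0.48), a 5.96-fold difference, and 2.55 (SE 0.26) when litters were compared within themselves.

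Olfr376 had counts of 29, 162 and 139 with 100% acetophenone in litters 1, 2 and 3, against 2, 16 and 25 in controls. In CPM this was 9.18, 54.0 and 56.5 with 100% acetophenone, against 0.637, 5.53 and 9.33 in controls. Litter 1 was low in both groups, so that its library with 100% acetophenone sat just under the control of litter 3 and the groups overlapped. The log2 fold change was 2.94 (SE 0.98), a 7.65-fold difference, and 3.05 (SE 0.37) within litters. In litter 1, where the control rests on 2 reads, the ratio was 14.4 with an exact 95% counting interval from 3.64 to 125.

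With 1% acetophenone the values of Olfr376 were again above control in 3 of 3 litters, while those of Olfr30 were close to control in 2 of the 3. Olfr376 had counts of 34, 54 and 57 with 1% acetophenone in litters 3, 4 and 5, against 25, 24 and 20 in controls. This was 13.5, 14 and 16.6 CPM with 1% acetophenone, against 9.33, 5.6 and 5.75 CPM in controls. The groups did not overlap, as was so for 1.61% of the genes tested in the higher direction, and the smallest ratio, 1.45, was that of litter 3. Over the 3 litters the log2 fold change of Olfr376 was 1.12 (SE 0.41), and 0.72 (SE 0.77) when libraries were scaled to their receptor counts. As a share of receptor counts Olfr376 was 1.03, 2.59 and 1.45 times its control in litters 3, 4 and 5.

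Olfr30 had counts of 51, 39 and 71 with 1% acetophenone in litters 3, 4 and 5, against 22, 38 and 55 in controls. This was 20.3, 10.1 and 20.6 CPM with 1% acetophenone, against 8.21, 8.87 and 15.8 CPM in controls. The groups overlapped, and litter 3 alone had a ratio over 2, at 2.47. Over the 3 litters the log2 fold change of Olfr30 was 0.66 (SE 0.48), and it turned to -0.19 (SE 0.89) when libraries were scaled to their receptor counts.

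Litters 4 and 5 took no part in choosing the genes, so 1% acetophenone in these litters gives the single comparison in which they could be tested. It holds 2 libraries against 2. For Olfr376 the ratios to its litter's control were 2.50 (exact 95% counting interval 1.52 to 4.24) in litter 4 and 2.88 (1.70 to 5.06) in litter 5, and the log2 fold change was 1.45 (SE 0.40). The groups did not overlap, as was so for 13.7% of all genes tested, in the higher direction. Its unadjusted p in edgeR's quasi-likelihood test was 0.00865 and its Benjamini-Hochberg adjusted p over 12433 genes was 1, so that Olfr376 did not pass. Within litters its log2 fold change was 1.44 (SE 0.39, edgeR adjusted p = 0.439). With libraries scaled to their receptor counts, the log2 fold change of Olfr376 was 0.90 (SE 0.80, edgeR unadjusted p = 0.264). At an unadjusted p under 0.05, 2.59% of all genes were reached without the litter term and 9.07% with it, and no gene passed after adjustment in edgeR in either fit, whereas DESeq2 called 5, neither Olfr30 nor Olfr376 among them.

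For Olfr30 in litters 4 and 5, the ratios were 1.14 (exact 95% counting interval 0.712 to 1.84) and 1.30 (0.904 to 1.89). Its log2 fold change was 0.35 (SE 0.50, edgeR adjusted p = 1), and 0.31 (SE 0.33, edgeR adjusted p = 0.815) within litters. A difference of this size was not detectable with these 4 libraries. Its direction turned when libraries were scaled to their receptor counts (log2 -0.35), and also without the 1% library of litter 5 (-0.30) or the control of litter 4 (-0.02).

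**Figure D2:**
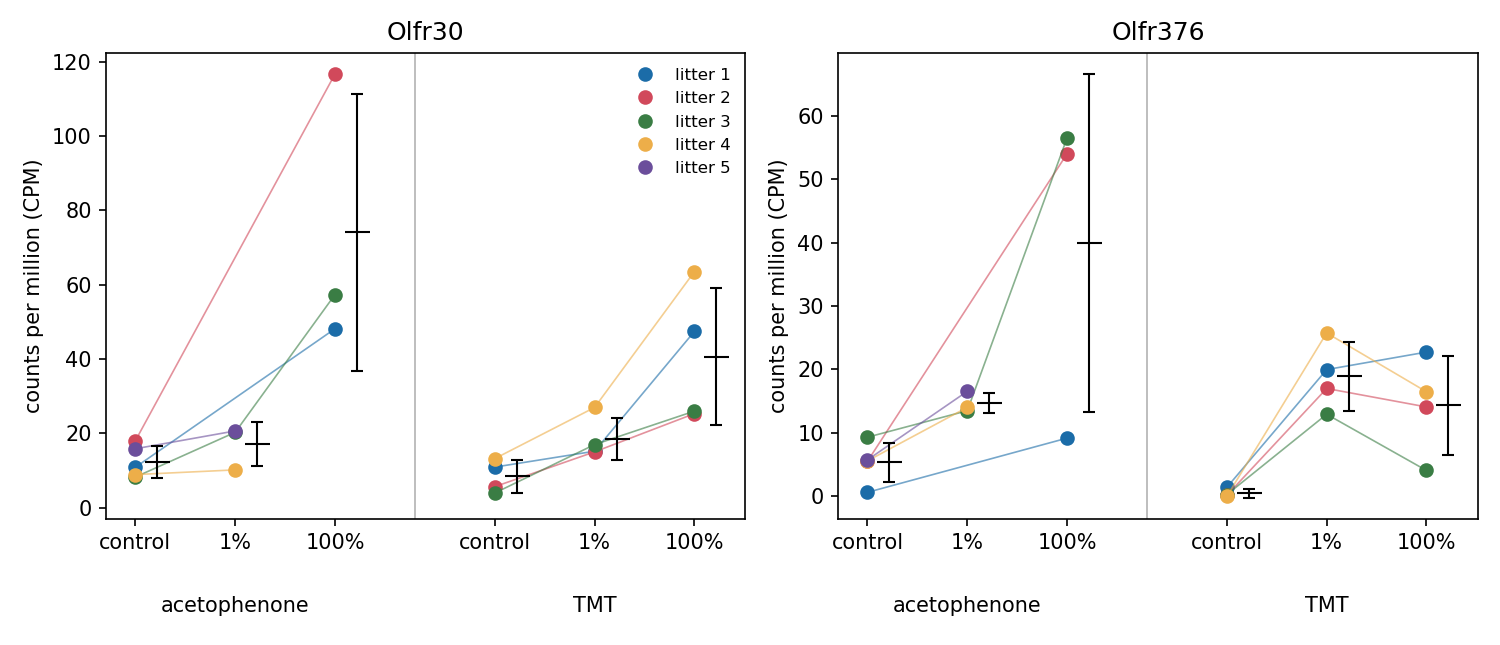
CPM of Olfr30 (left) and Olfr376 (right) in each of the 23 libraries, by odor and dose, where each point is a library, lines join libraries of a litter, and black marks give the mean with its SD. Olfr30 is highest at 100% of either odor, while the 4 libraries with 1% TMT hold 12.9 to 25.7 CPM of Olfr376, against 0 to 1.42 CPM in TMT controls.

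In the TMT experiment the CPM of Olfr30 was higher at each dose step in every litter, whereas as a share of receptor counts it was below control in litter 1 at 1%, and in litter 4 at 100% below both 1% and control. Its counts in litters 1, 2, 3 and 4 were 46, 34, 28 and 73 in controls, then 44, 104, 140 and 250 with 1% TMT, and 123, 156, 70 and 493 with 100% TMT. In CPM this was 10.9, 5.62, 3.90 and 13.2 in controls, 15.2, 15, 16.9 and 26.9 with 1% TMT, and 47.4, 25.3, 25.9 and 63.5 with 100% TMT. Neither dose overlapped with control, as was so in the higher direction for 0.929% of the genes tested at 1% and 4.5% at 100%. The doses overlapped each other, because litter 4 at 1% was above litters 2 and 3 at 100%. The log2 fold change against control was 1.15 (SE 0.45) at 1% and 2.31 (SE 0.46) at 100%, and between 100% and 1% it was 1.16 (SE 0.44).

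Olfr376 took another course. Its counts in litters 1, 2, 3 and 4 were 6, 1, 2 and 0 in controls, then 58, 118, 107 and 239 with 1% TMT, and 59, 87, 11 and 128 with 100% TMT. In CPM this was 1.42, 0.165, 0.278 and 0 in controls, 19.98, 17, 12.9 and 25.7 with 1% TMT, and 22.7, 14.1, 4.08 and 16.5 with 100% TMT. Neither dose overlapped with control, as was so in the higher direction for 0.929% of the genes tested at 1% and 4.5% at 100%. For both Olfr30 and Olfr376 these shares are given without a reading, because the 100% contrast and its controls chose them. The doses of TMT overlapped each other for Olfr376, with 100% above 1% in 1 of 4 litters. The control libraries alone would not have carried Olfr376 past the filter on low counts, so it entered the fit through the odor libraries.

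The folds of Olfr376 with TMT are large and imprecise, since they rest on control counts of 0 to 6. The log2 fold change against control was 5.41 (SE 0.84) at 1% and 5.04 (SE 0.84) at 100%. With reads of several alignments included it was lower, at 4.87 (SE 0.89) for 1% and 4.64 (SE 0.88) for 100%. With acetophenone the same change went the other way. It took Olfr376 from 1.12 to 1.31 at 1% in litters 3 to 5 and from 2.94 to 3.18 at 100%. Litter by litter, 100% TMT gave ratios to control of 16 (exact 95% counting interval 6.94 to 45.4) in litter 1, 85.3 (14.9 to 3410) in litter 2 and 14.6 (3.20 to 136) in litter 3. The control of litter 4 had no read, which allows up to 0.541 CPM at 3 counts, so its ratios were at least 30.5-fold at 100% and at least 47.6-fold at 1%. Between 100% and 1% TMT the log2 fold change of Olfr376 was -0.37 (SE 0.66), and the same difference within litters was -0.57 (SE 0.58), both within their SE.

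The number of Olfr376 reads for each Olfr30 read in a library does not depend on how the library is scaled, and it set the TMT doses apart. It was 0.13, 0.0294, 0.0714 and 0 in TMT controls of litters 1 to 4, then 1.32, 1.13, 0.764 and 0.956 with 1% TMT, and 0.48, 0.558, 0.157 and 0.26 with 100% TMT. The 3 groups did not overlap, with 1% highest and control lowest in each litter. This ratio was chosen after its values had been seen and is a description without a test. With reads of several alignments included, the medians were 0.19 in controls, 3.12 with 1% and 1.29 with 100% TMT, but 100% TMT and control then overlapped, since the 100% library of litter 3 had 0.6, against 0.63 in the control of litter 1.

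In the acetophenone experiment the same ratio did not set the groups apart. It was 0.0588, 0.308, 1.14, 0.632 and 0.364 in controls of litters 1 to 5, then 0.667, 1.38 and 0.803 with 1% acetophenone in litters 3 to 5, and 0.191, 0.463 and 0.986 with 100% acetophenone in litters 1 to 3. The range over the 5 controls took in every library with 100% acetophenone and 2 of the 3 with 1%. Within litters 1, 2, 4 and 5 the odor library had a higher ratio than its own control, whereas litter 3 went the other way. In litter 3, the litter with both doses, control had the highest ratio and 1% the lowest. With reads of several alignments included, this litter had 2.82 in control, 1.94 with 1% and 3.19 with 100%, which was then the highest. Its 2.82 was then the highest control, below that 3.19 and below 4.36 and 2.87 with 1% in litters 4 and 5.

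**Figure D3:**
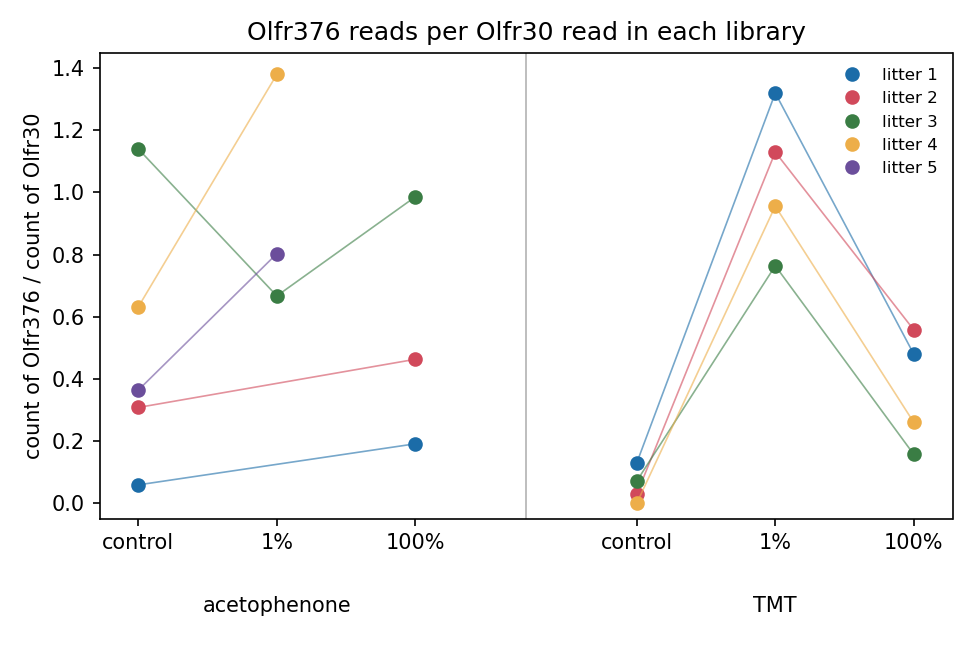
Count of Olfr376 divided by the count of Olfr30 in the same library (y axis) for each odor and dose (x axis), where points are libraries and lines join libraries of a litter. With TMT the 1% libraries lie between 0.764 and 1.32, above the 100% libraries at 0.157 to 0.558 and the controls at 0 to 0.13.

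Among receptors Olfr30 stood near the top by unique counts after 100% of either odor. Unique counts keep all reads of Olfr30 but leave out reads of receptors with near copies, such as Olfr376. With reads of several alignments included, 100% TMT gave Olfr376 195, 263, 42 and 495 reads in litters 1 to 4. Olfr30 had 123, 156, 70 and 493. Ranked by count per coding kilobase over 1104 receptors, it was at place 3, 5 and 18 with 100% acetophenone in litters 1, 2 and 3, against 34, 53 and 149 in the controls of these litters. With 100% TMT it was at place 2, 2, 1 and 1 in litters 1 to 4, against 24, 7, 23 and 4 in controls. Olfr376 was at place 68, 15 and 19 with 100% acetophenone, against 458, 239 and 133 in controls, and at 17, 8, 47 and 19 with 100% TMT. With 1% TMT it was at 22, 4, 10 and 5. Its controls in the TMT experiment held at most 6 reads, too few for a place to be read.

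Part of the difference in CPM moved with all receptors together. Scaling each library to its receptor counts shifted the log2 fold change of every gene in a litter by -0.75 to -0.35 for 100% acetophenone, -2.31 to -0.53 for 100% TMT and -1.19 to -0.41 for 1% TMT. On that scale Olfr30 with 100% TMT was 2.56, 1.96, 4.6 and 0.971 times its control in litters 1 to 4, and in litter 4 it made up 3.42% of receptor counts with 100% TMT, against 3.52% in the control. With 100% acetophenone it was 3.48, 4.37 and 4.15 times its control in litters 1 to 3. Olfr376 was 9.40, 37.2 and 10.1 times its control with 100% TMT in litters 1 to 3 and at least 6.13 times in litter 4.

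The share of Olfr30 in receptor counts was thus above control in each litter with 100% acetophenone and in 3 of 4 litters with 100% TMT. At 1% TMT its share was 0.609, 1.44, 3.28 and 1.04 times control, below control in litter 1 and barely above in litter 4. That of Olfr376 at 1% TMT was 6.16, 55.4 and 35.0 times control in litters 1 to 3 and at least 24.2 times in litter 4. Summed over the 6 markers of mature neurons, CPM was higher by log2 0.16 to 0.64 per litter with 100% acetophenone, 0.14 to 0.99 with 100% TMT and 0.06 to 0.82 with 1% TMT. With 1% acetophenone the difference was -0.20 to 0.05. The part of mature neuron content in the values of Olfr30 and Olfr376 was not tested. Markers of gland cells, summed over 4 genes, ranged from 41700 to 80600 CPM with 100% TMT and from 14800 to 72900 CPM in the TMT controls, and their part was not tested either.

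**Figure D4:**
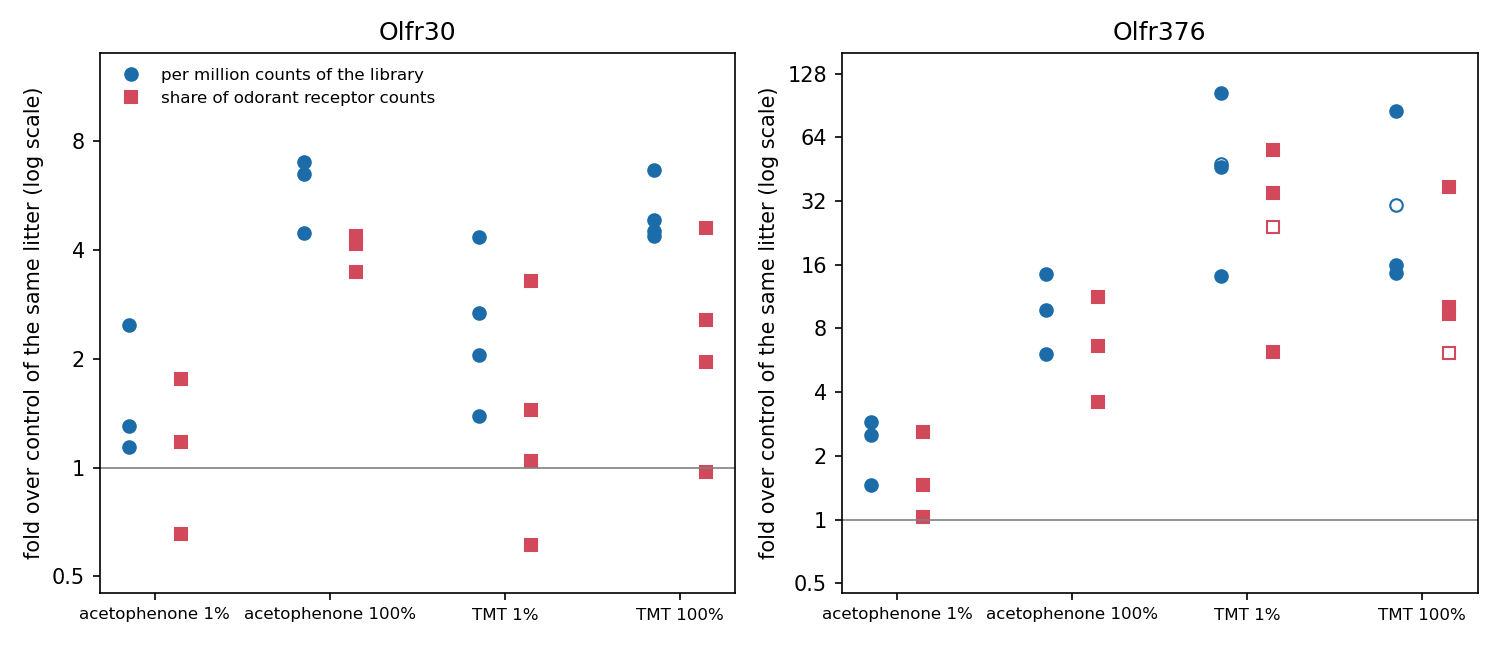
Fold over the litter's own control on a log scale for Olfr30 (left) and Olfr376 (right), in CPM (blue circles) and as a share of receptor counts (red squares), with 1 point per litter. Open symbols are lower bounds for litter 4, whose TMT control had no Olfr376 read. Olfr30 falls to 0.971 of control in litter 4 at 100% TMT on the receptor scale, while every Olfr376 point lies above 1.

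None of the 5 receptors closest in sequence to Olfr30 passed with both odors, which held for all receptors other than Olfr30 and Olfr376. Within litters, 8 of 322 such receptors tested passed with 100% acetophenone. With 100% TMT, of 133 tested, 7 passed as higher and 1 as lower, none of them among those 8. Olfr1395, the closest, had 38.9, 29.6, 18.9 and 20.5 CPM with 100% TMT in litters 1 to 4, against 7.57, 5.62, 2.37 and 3.06 CPM in controls, and the groups did not overlap. It rose within litters by log2 2.63 with 100% TMT (SE 0.31, edgeR adjusted p = 0.00603) and by 3.19 with 1% TMT (SE 0.31, edgeR adjusted p = 0.00524), higher in 4 of 4 litters each. Without the litter term the adjusted p was 0.102 at 100% and 0.105 at 1%. With 100% acetophenone it had 8.87, 11.7 and 12.6 CPM, against 8.92, 12.1 and 15.3 CPM in controls (log2 -0.11 within litters, SE 0.39, edgeR adjusted p = 0.978). The difference between the odors was not tested.

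The other 4 of the 5 receptors closest to Olfr30 were Olfr56 (66.3%), Olfr224 (66.1%), Olfr330 (65.7%) and Olfr373 (65.6%), and none of them passed in any comparison, with or without the litter term. At an unadjusted p under 0.05, 1 of these did within litters, which was Olfr56 with 1% TMT. In that fit 7.16% of all genes were reached at the same p. Olfr373 was below the filter on low counts in all comparisons. Among the 10 closest receptors that were tested with 100% acetophenone, at 63.9% to 67.7% identity, the log2 fold change ran from -0.70 to 1.23 with a median of 0.11, beside a median of 0.41 over the 318 other tested receptors with a coding sequence. Olfr30 itself stood at 2.55, above all 10, and 21 of the 318 were above it. With 100% TMT the 10 closest ran from -0.89 to 4.94 with a median of 2.0, beside 1.34 over 132 tested receptors, of which 40 were above Olfr30. Both contrasts chose Olfr30 for being high, so its places among these receptors are given without a reading. These are descriptions within 1 set of libraries, and receptors near the filter entered through the odor libraries.

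For Olfr376 the close copies were barely measurable. Olfr20, at 92.5% identity, had 2, 0, 0 and 0 counts in TMT controls of litters 1 to 4, then 1, 1, 0 and 0 with 1% TMT, and 7, 10, 3 and 15 with 100% TMT. In acetophenone libraries it had 1 to 11 counts. It was below the filter in every comparison and was not tested, and the 4 libraries with 100% TMT were above all others of that experiment. At 1% TMT, where Olfr376 had 58 to 239 unique reads per library, Olfr20 had at most 1.

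Olfr1 (85.6% identity), Olfr378 (84.5%), Olfr390 (82.8%) and Olfr384 (82.1%) complete the 5 closest to Olfr376. Olfr384 had no read in any library, and neither Olfr1 nor Olfr390 passed where it was tested. Olfr378 was not tested. With 100% acetophenone the 10 closest tested receptors ran from log2 -0.60 to 3.07 with a median of 0.87, and 11 of 318 tested receptors stood above the 3.05 of Olfr376. With 100% TMT they ran from -5.60 to 4.92 with a median of 2.56, and 5 of 132 stood above the 5.04 of Olfr376. Both contrasts chose Olfr376 too, so its places are given without a reading.

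**Figure D5:**
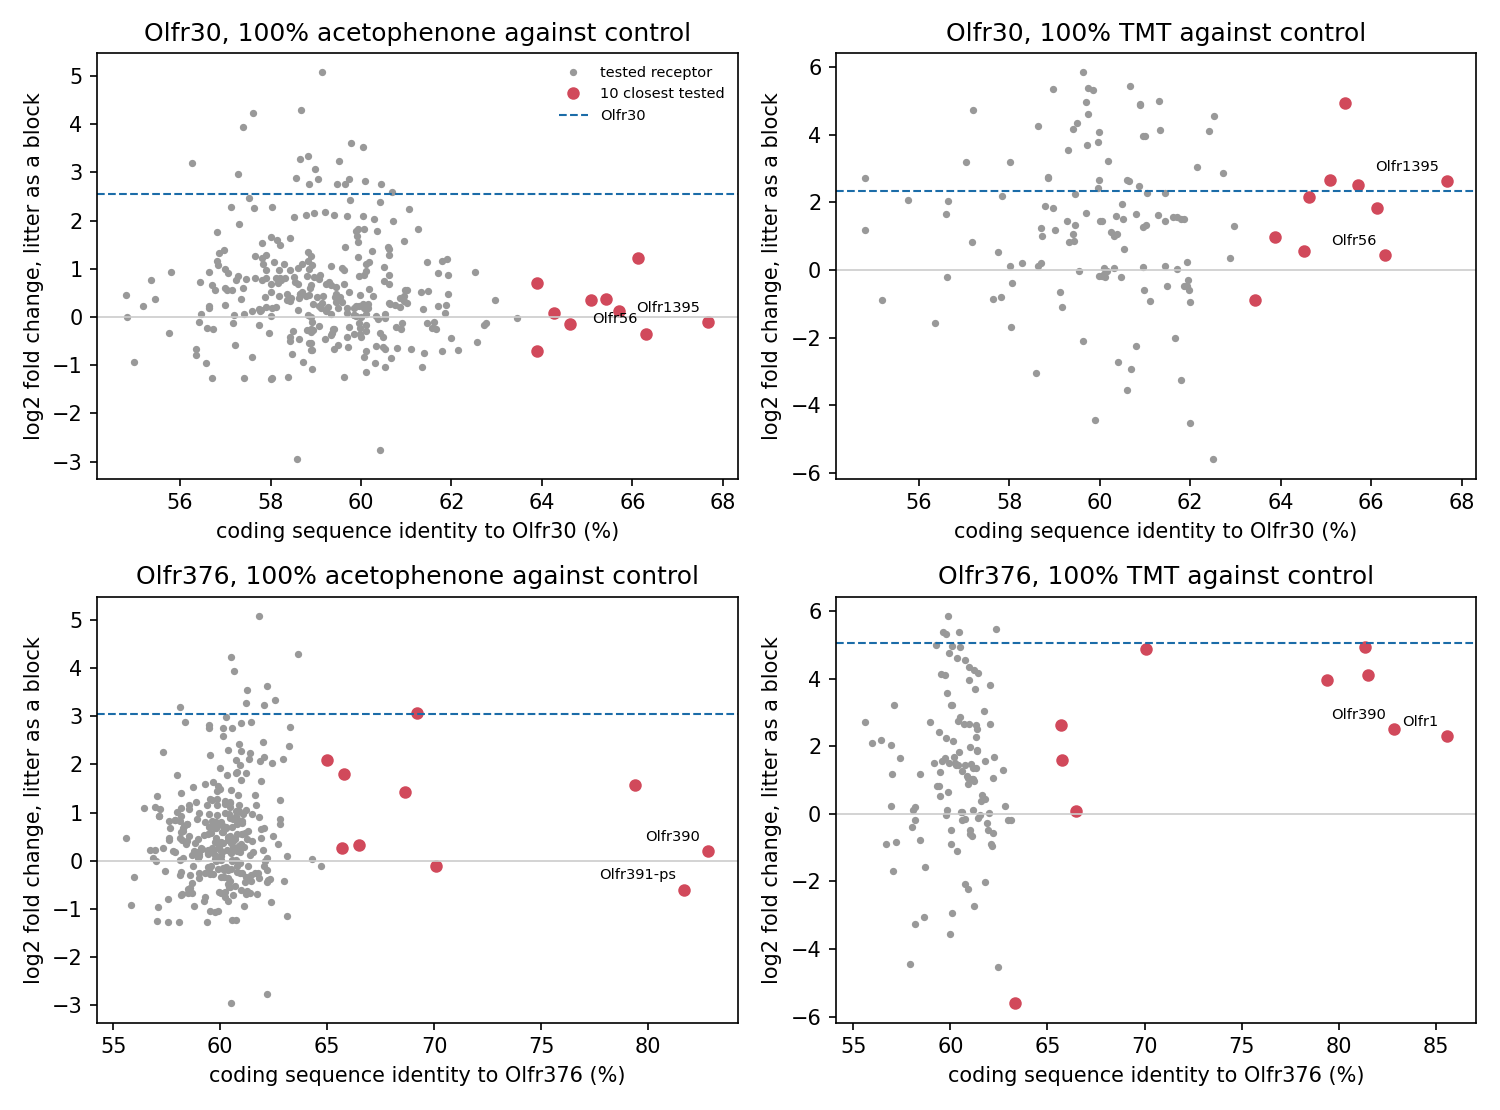
Log2 fold change within litters (y axis) against coding sequence identity (x axis, %) to Olfr30 (upper row) and Olfr376 (lower row) for every other tested receptor, with 100% acetophenone (left) and 100% TMT (right). Red points are the 10 closest tested receptors and the dashed line is the gene itself. With 100% acetophenone all 10 closest to Olfr30 lie at or under 1.23, below its 2.55, while with 100% TMT they reach 4.94, above its 2.33. These contrasts chose Olfr30 and Olfr376.

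Neighbouring receptors on the chromosome did not pass. Within 500 kb of the start of Olfr30 the annotation holds 22 other receptors, all on the higher-coordinate side, of which 20 had a row and 4 to 6 had enough counts to be tested. The nearest with a row were Olfr332 at 33.8 kb, with a log2 fold change of -0.71 with 100% acetophenone and -3.25 with 100% TMT, and Olfr331 at 47.5 kb, which had no read in any library. Within 500 kb of Olfr376 there are 19 other receptors, 14 with a row and 1 to 4 tested. The nearest with a row were Olfr20 on the lower-coordinate side and, on the other, Olfr1 at 21.8 kb and Olfr75-ps1 at 32.8 kb, which had 24 reads in all. All 4 tested neighbours of Olfr376 had a positive log2 fold change with 100% TMT in the within-litter fit. Litter by litter, Olfr1 and Olfr390 were each higher in 3 of 4. The log2 fold change was 2.29 (SE 1.39) for Olfr1, 4.92 for Olfr380, 4.09 for Olfr381 and 2.49 (SE 1.52) for Olfr390. Their median was 3.29, beside 1.34 over 133 tested receptors and 0.02 over all genes. Control counts were low, at 9, 0, 20 and 6 for Olfr1 and 10, 0, 0 and 5 for Olfr390 in TMT litters 1 to 4. Olfr380 and Olfr381 held only 128 and 91 reads over all 23 libraries. Near Olfr30 the 6 tested ranged from -3.25 to 2.51 with 100% TMT, the highest being Olfr330, with a median of 0.76. None of these neighbours passed in edgeR in 4 comparisons, with or without the litter term, with 1% acetophenone taken over litters 3 to 5. At an unadjusted p under 0.05 the within-litter fit reached 1 neighbour of Olfr30, which was Olfr332, lower, and 1 of Olfr376, higher, both with 100% TMT, where 19.6% of all genes were reached at that p. These are 1 of 6 and 1 of 4 tested, close to that share. After adjustment the background was low as well, with 0.0951% of all genes called within litters for 100% acetophenone, 2.37% for 100% TMT, 0.00828% for 1% acetophenone and 0.00756% for 1% TMT.

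Likeness in pattern was measured as the Pearson correlation of log2(CPM + 1), less the mean of each litter, over the 23 libraries. These libraries share litters and controls, and the values are descriptions. Olfr30 and Olfr376 were also chosen because both were called higher with both odors in these same libraries. That choice favours a high correlation between them, so their places in each other's lists are given without a reading. Among 449 receptors with a mean of at least 1 CPM, Olfr376 was the most like Olfr30 (r = 0.82), followed by Olfr1047 (0.81), Olfr490 (0.79), Olfr224 (0.78) and Olfr212 (0.76). For Olfr376 the most alike were Olfr1395 (0.82) and Olfr30 (0.82), then Olfr224 (0.81), Olfr531 (0.78) and Olfr736 (0.77). Without centring on litters, 3 of the 5 receptors were shared with these lists for each gene.

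Olfr224 stood in both lists, is the third closest to Olfr30 in sequence and starts 111.8 kb from it. Its log2 fold change within litters was 1.23 (SE 0.55, edgeR adjusted p = 0.897) with 100% acetophenone and 1.83 (SE 1.21, edgeR adjusted p = 0.444) with 100% TMT. It did not pass, and its levels were low, at 10.5, 9.67 and 8.95 CPM with 100% acetophenone, against 5.74, 2.07 and 5.22 CPM in controls.

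Among all genes with a mean of at least 1 CPM, the most like Olfr30 was Pcdh10 (r = 0.91), a protocadherin whose expression in olfactory neurons depends on activity, and Arhgap29 (0.86), Lrrc3b (0.85) and Siah2 (0.83) were also among the 5 most alike. Pcdh10 had 194, 178 and 65.1 CPM with 100% acetophenone in litters 1 to 3, against 45.3, 39.1 and 16 CPM in controls. The groups did not overlap, and Pcdh10 rose by log2 2.11 within litters (SE 0.20, edgeR adjusted p = 0.00679) but did not pass without the litter term (adjusted p = 1). With 100% TMT its log2 fold change within litters was 1.04 (SE 0.25, edgeR adjusted p = 0.0507), and with 1% TMT 0.51 (SE 0.24, edgeR adjusted p = 0.726).

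The most like Olfr376 were Serpinb7, Atp10d, Nsf, Mettl8 and Stoml3, each at r = 0.84. Stoml3, a stomatin-like protein of olfactory cilia and 1 of the 6 mature neuron markers, had a log2 fold change of 0.58 (SE 0.16) with either dose of TMT within litters and did not pass in edgeR (adjusted p = 0.078 at 100% and 0.689 at 1%). Without centring on litters, none of the 5 genes was shared with these lists, for Olfr30 or for Olfr376.

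Of 24 genes for olfactory transduction and receptor handling, such as Gnal (the G protein subunit), Adcy3 (adenylyl cyclase), Cnga2 (the cyclic nucleotide-gated channel) and Rtp1 (which carries receptors to the membrane), 22 were tested with 100% acetophenone, 23 with 1% acetophenone and 24 with TMT. None passed as higher in edgeR in any of these 4 comparisons and 1 passed as lower, while at an unadjusted p under 0.05 within litters 4 were higher with 100% acetophenone, 7 with 100% TMT, 3 with 1% TMT and 0 with 1% acetophenone, and 2 were lower, both with 100% TMT. Over all genes, in either direction, that p was reached within litters by 5.27% with 100% acetophenone, 19.6% with 100% TMT, 7.16% with 1% TMT and 8.51% with 1% acetophenone. The 1 lower gene was Lhx2, a transcription factor of receptor genes, which fell by 0.65 on the log2 scale within litters with 100% TMT (SE 0.15, edgeR adjusted p = 0.0496, lower in 4 of 4 litters), with an adjusted p of 0.169 without the litter term. The median log2 fold change of the list within litters was 0.21 with 100% acetophenone and 0.14 with 100% TMT, beside 0.01 and 0.02 over all genes.

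Of 24 genes that respond to activity, 13 were tested with 100% acetophenone and 16 with TMT. Within litters 1 passed with 100% acetophenone, which was Pcdh10, and 3 passed with 100% TMT, all higher. These were Nr4a1 (log2 1.78, SE 0.29, edgeR adjusted p = 0.0213) and Nr4a2 (1.96, SE 0.45, edgeR adjusted p = 0.046), which are orphan nuclear receptors induced early after stimulation, and Dusp1 (0.83, SE 0.19, edgeR adjusted p = 0.0477), a phosphatase of MAP kinases. None passed without the litter term, and none with 1% of either odor. At an unadjusted p under 0.05 within litters, 5 were higher with 100% acetophenone, 9 with 100% TMT, 1 with 1% TMT and 1 with 1% acetophenone, where 1 was lower. Beside the shares over all genes just given, 1 of 16 with 1% TMT and 2 of 16 with 1% acetophenone are near background. The median within litters was 0.83 with 100% acetophenone and 0.72 with 100% TMT, beside 0.01 and 0.02 over all genes.

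The order of levels over the 6 groups differed between the genes. Olfr30 averaged 74.1 ± 37.2 CPM with 100% acetophenone (SD, n = 3), then 40.5 ± 18.4 with 100% TMT (n = 4), 18.5 ± 5.69 with 1% TMT (n = 4), 17 ± 5.95 with 1% acetophenone (n = 3), 12.3 ± 4.34 in acetophenone controls (n = 5) and 8.39 ± 4.35 in TMT controls (n = 4). Each neighbouring pair in this order overlapped in range. Olfr376 averaged 39.9 ± 26.6 CPM with 100% acetophenone, then 18.9 ± 5.39 with 1% TMT, 14.7 ± 1.63 with 1% acetophenone, 14.3 ± 7.76 with 100% TMT, 5.37 ± 3.09 in acetophenone controls and 0.466 ± 0.646 in TMT controls, with the same n. Neighbours overlapped in this order too, including the 2 controls, whose ranges met between 0.637 and 1.42 CPM. The experiments were run separately, so levels set across them also carry the difference between experiments.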

How the data were processed

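RNA from pS6 immunoprecipitates was sequenced in 23 libraries. Bowtie, bedtools and the mm10 build are named in the submitters' processing notes. For none of these is a version given in the sources used here, and neither is an annotation. A deposited table has 20 value columns. The first holds raw counts by the authors, read from its values as uniquely aligned reads, and was used throughout. The later deposited columns hold estimated counts, read as running sums over reads with up to 20 alignments. They were rounded for tests.

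Comparisons used edgeR 4.0.16 (TMM, filterByExpr with a minimum count of 10, quasi-likelihood test, Benjamini-Hochberg over all genes, threshold 0.05) in R 4.3.3, and DESeq2 1.42.0 as an alternative. The main fits had no litter term. Labels give the litter, so litters pair libraries, and values within litters come from a second fit that adds the litter as a replicate block. Deviations from group means correlated across genes at 0.58 to 0.89 within acetophenone litters and 0.01 to 0.36 within TMT litters. The SE was the log2 fold change divided by the square root of F. Fits were tested on simulated data. Whether libraries of a group come from separate cohorts beyond their litter is not stated, and p-values measure the spread between these libraries. No 2 libraries held identical counts.

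The members and gene lists were chosen with earlier results of these data known. Named genes were, by rule, the 5 receptors closest in sequence, receptors within 500 kb, the 5 genes and receptors most alike in pattern, and list genes that passed. 1 gene that the rule names is not reported here. Coding sequences came from GENCODE M21 transcripts for 1104 receptors, and identity was taken over global alignments (Biopython 1.88), in place of the planned protein identity. Counting intervals and the limit of 3 counts cover counting error only, since reads that carry no molecular identifier may be copies of a molecule.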

Additional observations from a re-analysis of the deposited data

Results flagged for a closer look

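Olfr30 in the library with 1% TMT of litter 4 had 26.9 CPM, far above the other 3 litters of its group at 15 to 16.9 CPM. As a share of receptor counts, Olfr30 in the library with 1% TMT of litter 1 made up 0.568%, far below the other 3 litters at 3.29% to 3.67%. They came from 16 checks for a library far from its group, in groups of 4 or 5 libraries, and chance flags about 1 in 20.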

How the results depend on the processing

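Over 5 comparisons, 93 of 100 alternative log2 fold changes of Olfr30 and Olfr376 kept their direction and their side of the threshold or stayed within the spread between litters. This rule was loose. Neither gene passed in litters 4 and 5, so staying short of the threshold counted as kept. For Olfr376 with TMT the litter spread (SD) was 1.83 at 100% and 1.86 at 1%, so a shift from 5.04 to 4.18 at 100% counted as kept. Scaling to receptor counts reversed Olfr30 with 1% acetophenone (-0.35 in litters 4 and 5, -0.19 in litters 3 to 5) and moved it to 1.96 with 100% acetophenone and 0.95 with 100% TMT, and it moved Olfr376 to 2.36 with 100% acetophenone. The cause was not tested. In litters 4 and 5, leaving out 1 library gave -0.30 to 0.82 for Olfr30 and 1.28 to 1.60 for Olfr376. In the other comparisons a whole litter was left out, with both of its libraries or, for TMT, all 3. This gave Olfr30 0.35 to 0.81 with 1% acetophenone in litters 3 to 5, 2.45 to 2.71 with 100% acetophenone, 0.95 to 1.36 with 1% TMT and 2.23 to 2.38 with 100% TMT. It gave Olfr376 0.86 to 1.45, 2.71 to 3.35, 4.82 to 6.71 and 4.53 to 6.08 in the same order. A group of 1 library left in litters 4 and 5 is assumed to vary like the other. In these litters, -0.02 came without the control of litter 4.

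The litter block changed no call of Olfr376 or Olfr30 in litters 4 and 5. The main fits called no gene in any comparison, while the replicate block called 0 genes in litters 4 and 5, 1 with 1% acetophenone in litters 3 to 5, 11 with 100% acetophenone, 314 with 100% TMT and 1 with 1% TMT. DESeq2, chosen for these counts after seeing the data, called 5, 1, 5, 463 and 4 in the same order. At an unadjusted p under 0.05 the main edgeR fits reached 322, 93, 61, 1944 and 568 genes. The low receptor counts limit Olfr376 most, with 0 to 6 reads in TMT controls.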
